A study of Mus musculus with 48 samples.

Results

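Livers of mice homozygous for a dominant-negative knock-in of the liver X receptor LXRα (DN:HOM) were compared with livers of wild-type mice of the same line (DN:WT). Members were chosen by the genotype label alone, which gave 8 DN:HOM and 8 DN:WT livers, 16 of the 48 livers in the series. All were C57Bl/6J males bred from heterozygous pairs that descended from 1 edited founder, and they had eaten a western diet with added cholesterol for 8 weeks from young adulthood. DN:WT mice carried 2 wild-type copies of Nr1h3, the gene of LXRα, DN:HOM mice 2 copies with the change W441R, and the 8 DN:HET mice named below 1 copy of each. Polyadenylated RNA of each liver was sequenced as a stranded library, and the values are counts of reads per gene. The change was in every cell of the body, so no result here can be assigned to hepatocytes alone.

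The edited codon is the 441st of 445 in Nr1h3 and lies in exon 10, the last coding exon, at chr2:91014696-91014698 of GRCm39 on the minus strand. It is shown with its surroundings because it is the designed difference between the groups. The wild-type reference sequence of chr2:91014684-91014755, which ends at the last codon before the stop, is given 5′ to 3′ on the strand of the gene, with codon 441 in capitals.
Nr1h3: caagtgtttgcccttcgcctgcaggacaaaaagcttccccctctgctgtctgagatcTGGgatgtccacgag

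LXRα is a nuclear receptor that binds DNA together with the retinoid X receptor and is switched on by oxysterols, the oxidized forms of cholesterol. Its last helix closes over the ligand pocket when ligand binds and forms the surface that recruits co-activators. Without that helix a nuclear receptor tends to keep co-repressors, so it can occupy its sites and hold genes down. In liver LXRα is known for driving fatty acid synthesis and the disposal of cholesterol. The description here is of functions beyond those pathways: detoxification, secretion, mitochondria, extracellular matrix and the cell cycle.

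Before any test, 2 livers stood apart from their labels. They are the liver labelled DN:WT from animal 10 and the liver labelled DN:HOM from animal 12, which are absent from source data of the study. Of 37 lists of genes grouped by function, 29 had mean log2 levels that did not overlap between the other 7 DN:WT and the other 7 DN:HOM livers. Animal 10 lay nearer the DN:HOM mean in 29 of these 29 lists and within the DN:HOM range in 26. Animal 12 lay nearer the DN:WT mean in 28 and within the DN:WT range in 22. With all 16 livers, 0 of the 37 lists had groups that did not overlap. Whether the labels of these 2 livers were exchanged was not tested, and if they were, each value for 8 against 8 livers would hold 1 liver of the other genotype in each group. The livers were kept under their labels and were not moved, so values are given for 7 against 7 livers, and most list medians and some of the genes also for 8 against 8. Of the 208 genes named below that passed with 7 against 7 livers, 208 had the same direction with 8 against 8, 202 passed and 208 had a log2 fold change nearer to 0, which was over 1.5 times smaller for 95. In a fit of the 16 compared livers alone, added after seeing the data, 25 of the named genes no longer passed. For some of the genes described below, the highest adjusted p over all alternatives is given. It is from whichever setting gave it, which was not always that fit.

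Reads on the sense strand of genes lay between 13876351 and 16224831 in DN:WT livers and between 15438063 and 16762405 in DN:HOM livers, so 1 CPM (1 count per 1000000 reads) stood for about 14 to 17 reads before scaling. The CPM given were also divided by a scaling factor, 0.922 to 0.974 in the 7 DN:WT and 1.21 to 1.34 in the 7 DN:HOM livers. After scaling, 1 CPM thus stood for more reads in these DN:HOM livers. The 10 most abundant genes took 18.8% ± 1.18 of reads (SD, n = 7) in DN:WT and 14.4% ± 0.411 in DN:HOM livers, and the number of genes with a read was 20223 ± 75.2 and 22072 ± 329 (p = 0.000583 for each in a two-sided exact permutation test, the smallest it can give). Reads on mitochondrial genes made up 6.15% ± 0.683 in DN:WT and 4.68% ± 0.587 in DN:HOM livers (exact permutation p = 0.00117, and 0.0087 with 8 against 8 livers). Reads that named no gene were 26.2% to 34.3% of all in DN:WT and 24.6% to 26.7% in DN:HOM livers, with means of 30.6% ± 2.82 and 25.3% ± 0.717 (exact permutation p = 0.00117, and 0.00249 with 8 against 8). Among them, unmapped reads were 6.36% to 15.4% of all reads in the 7 DN:WT and 2.74% to 4.94% in the 7 DN:HOM livers, so these groups did not overlap, with 3.09% for animal 10 and 7.18% for animal 12. These measures of the libraries moved with every comparison of the groups, and their part in the results was not tested.

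Nr1h3 transcripts, which in DN:HOM livers could come from edited alleles alone, were lower under the main scaling and not under library size alone. Their level was 82 to 96.9 CPM (median 93.9) in DN:WT and 68.5 to 77.4 CPM (median 72.2) in DN:HOM livers, and the groups of 7 did not overlap. Animal 10 had 71.3 CPM and animal 12 86.9 CPM. The log2 fold change was -0.32 ± 0.06 (SE, adjusted p = 1.47e-05), and -0.26 with 8 against 8 livers. With libraries scaled by their size alone it was 0.11 and did not pass, with an adjusted p of 0.13 at the upper end of a range that started at 2.04e-06 over the alternatives. The gene shares its strand with the overlapping Gm13783, so reads of their shared bases are uncertain. The same holds for Slc7a11, Ugdh, Gstt3 and Prom1 below, each of which overlaps another annotated gene on its strand.

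Of 15711 genes tested, 9292 (59.1%) passed an adjusted p of 0.05, 4579 (29.1%) higher and 4713 (30%) lower in DN:HOM livers. For 5270 genes (33.5%) the 7 DN:HOM livers did not overlap with the 7 DN:WT livers, and 5264 of these were also called, 2787 higher and 2477 lower. For each of those 5264 genes, the middle of the gap between the nearest livers of the groups of 7 was taken. Animal 10 was on the DN:HOM side of it for 95.7% and animal 12 on the DN:WT side for 96.3%. With 8 against 8 livers, 7502 of 15621 genes (48%) passed, 3596 (23%) higher and 3906 (25%) lower. The balance of rises and falls rested on scaling. The main scaling, by trimmed means, left the median log2 fold change of all genes at -0.01, library size alone moved it by 0.43 to 0.42, and the calls then became 9283 higher and 1738 lower, or 84.2% higher against 49.3%. Upper-quartile scaling gave 57.6% higher. The 47 lists, 37 of functions and 10 of cell markers, named 1288 genes, a gene on more than 1 list counted each time, of which 1244 were tested. For 41 the reads were too few, with means of at most 1.21 CPM in DN:HOM and 0.551 CPM in DN:WT livers, and 3 symbols were not matched. Medians of lists below are to be read against -0.01, and counts of called members against the 59.1% of all genes. The value under library size alone is given for most lists.

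**Figure D1:**
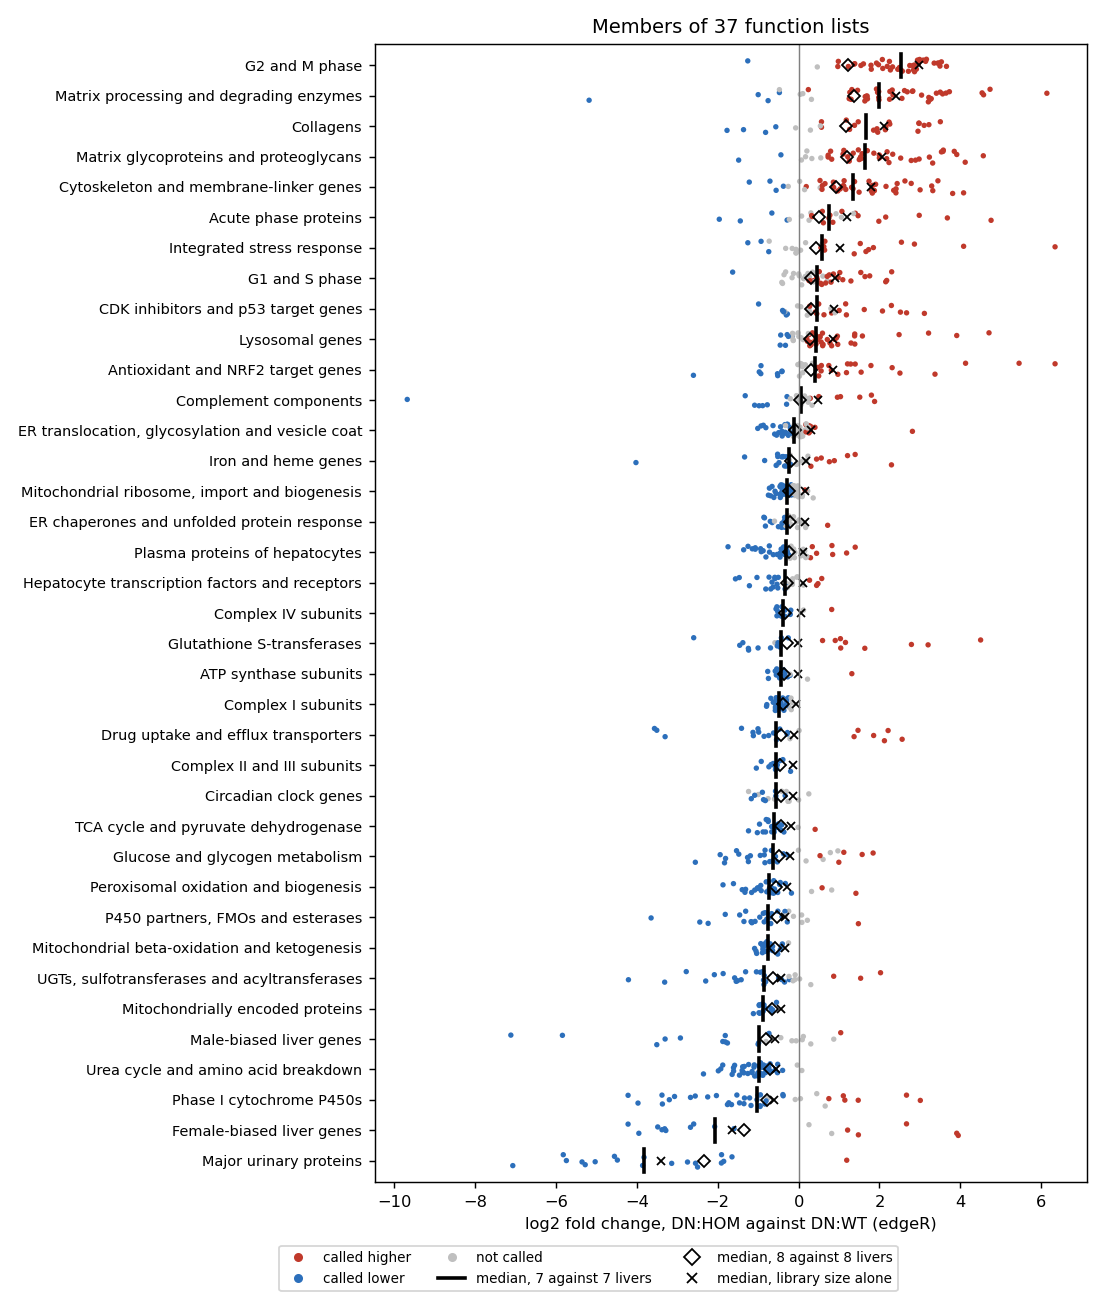
Log2 fold change of each tested member of 37 function lists in DN:HOM against DN:WT livers, red where called higher, blue where called lower and grey where not called, with the list's median from 7 against 7 livers (bar), from 8 against 8 (diamond) and under library size alone (cross). Medians run from -3.82 for major urinary proteins to 2.53 for G2 and M phase genes, and for 7 lists the cross lies on the other side of 0 from the bar.

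Bulk RNA holds every cell of the liver, and fewer cells of a type cannot be told apart from less RNA per cell. Markers of 10 cell types were therefore summed in each liver. Defining genes of resident Kupffer cells, the macrophages that live in liver sinusoids, fell in 7 of 7 cases (median log2 fold change -6.22, -3.02 with 8 against 8 livers), and their sum was 147 to 278 CPM in DN:WT and 2.04 to 4.14 CPM in DN:HOM livers. Clec4f, the most specific Kupffer lectin, was at 60.3 to 108 CPM (median 85) in DN:WT and 0.192 to 0.632 CPM (median 0.296) in DN:HOM livers, with 0.202 CPM for animal 10 against 62.1 CPM for animal 12. Its log2 fold change was -7.74 ± 0.41 (SE, adjusted p = 2.95e-19), and -3.23 with 8 against 8 livers. Cd5l, Cd163 and Timd4, a secreted protein, a haemoglobin scavenger receptor and a receptor for dying cells, had at most 0.592, 0.361 and 0.296 CPM in the 7 DN:HOM livers, and 3 of the 7 markers were at 0 in at least 1 of them.

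Markers of recruited and lipid-associated macrophages rose in 10 of 10 cases (median 3.46, and 2 with 9 called for 8 against 8 livers), with sums of 69.1 to 140 CPM in DN:WT and 572 to 859 CPM in DN:HOM livers. Gpnmb, a membrane glycoprotein of lipid-laden macrophages, was at 0.273 to 2.54 CPM (median 0.742) in DN:WT and 138 to 289.9 CPM (median 178) in DN:HOM livers. The ranges were far apart, animal 12 had 1.12 CPM and animal 10 247 CPM, and the log2 fold change was 7.5 ± 0.84 (SE, adjusted p = 3.09e-10), or 2.33 with 8 against 8 livers (adjusted p up to 0.147 over the alternatives). Trem2, a lipid receptor of such macrophages, and Itgax, an integrin, rose by 4.99 and 4.65 on the log2 scale. Neutrophil markers rose in 7 of 7, and in 5 with 8 against 8 livers (sums of 3.48 to 6.61 and 32.2 to 86.4 CPM), with S100a8 at 0.745 ± 0.328 and 14.2 ± 7.03 CPM (SD, n = 7 each) and S100a9 at 0.852 ± 0.499 and 16.9 ± 7.3 CPM (adjusted p up to 0.0524 over the alternatives).

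Cholangiocyte markers, genes of the bile duct lining, rose in 8 of 8 (median 3.96, 2.26 with 8 against 8 livers), and their sum was 30.9 to 72.6 CPM in DN:WT and 744 to 1091 CPM in DN:HOM livers. Spp1, the secreted phosphoprotein osteopontin, made up most of that sum. Tspan8, Epcam and Krt19, a tetraspanin, an adhesion molecule and a keratin of ducts, had log2 fold changes of 4.92, 4.0 and 3.58. Krt19 was at 0.283 to 1.18 CPM (median 0.867) in DN:WT and 8.95 to 10.2 CPM (median 9.75) in DN:HOM livers, and the groups did not overlap. Stellate cell markers rose in 6 of 9 and fell in 1 (median 0.69, 0.49 with 8 against 8). Their mean log2 level relative to DN:WT lay between -0.12 and 0.14 in DN:WT and between 0.35 and 0.96 in DN:HOM livers, with no overlap. Their sums overlapped, at 190 to 217 CPM in DN:WT and 191 to 273 CPM in DN:HOM livers, and held Ecm1, the 1 marker that fell, from 91.8 ± 6.62 to 32.5 ± 6.3 CPM. T and NK cell markers rose in 4 of 9, and B and plasma cell markers rose in 1 and fell in 1 of 6, shares of 44.4% and 33.3% called that are below the 59.1% of all genes. With 8 against 8 livers 1 and 0 of them passed.

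Hepatocyte markers were lower in 7 of 9 cases (median -0.94, -0.72 with 8 against 8), and their sum was 73710 to 95130 CPM in DN:WT against 46150 to 54600 CPM in DN:HOM livers. Hnf4a, the transcription factor that defines hepatocytes, did not pass (log2 fold change -0.15 ± 0.11 SE, adjusted p = 0.259), but was at 0.28 and passed under library size alone. These sums differed between the groups compared in every result below on genes that hepatocytes express, of which some fell and some rose, and the part they had in those results was not tested. Sinusoidal endothelium markers had a median of -0.25 (-0.22 with 8 against 8 livers and 0.17 under library size alone), rose in 3 of 8 (Stab1, a scavenger receptor, by 0.74) and fell in 4 (Kdr, a receptor for vascular endothelial growth factor, fell by 0.80 (adjusted p up to 0.0584 over the alternatives)), with sums of 148 to 217 and 165 to 257 CPM.

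Detoxification in liver runs in steps, from oxidation by cytochrome P450 enzymes, through conjugation to sugars, sulfate or glutathione, to export. Of 39 listed P450 genes tested, mostly of families 1 to 4, 28 were lower, 6 were higher and 5 did not pass, with a median log2 fold change of -1.03 (-0.79 with 8 against 8 livers and -0.61 under library size alone). The list does not hold Cyp4a10 and Cyp4a14, given below, which also fell. Among its members with at least 5 CPM, the 4 largest falls were all in the Cyp2c family, which oxidizes drugs and fatty acids. Cyp2c29 (ENSMUSG00000003053, chr19:39257849-39319157 of GRCm39) was at 924 to 1376 CPM (median 1172) in DN:WT and 67.1 to 199 CPM (median 123) in DN:HOM livers. Animal 10 had 110 CPM and animal 12 1444 CPM, so the former lay within the DN:HOM range and the latter above the DN:WT range. The log2 fold change was -3.2 ± 0.24 (SE, adjusted p = 5.45e-15), and -1.83 with 8 against 8 livers. Cyp2c54, Cyp2c37 and Cyp2c50 fell by 3.37, 3.07 and 2.56. These are close copies of each other, and Cyp2c29 shares bases with the pseudogene Cyp2c53-ps, so how reads were split among them is uncertain, but all 4 moved one way.

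Cyp2e1, the ethanol-oxidizing P450 of cells around the central vein, was at 5508 to 7434 CPM (median 6656) in DN:WT and 1059 to 3976 CPM (median 1703) in DN:HOM livers, a log2 fold change of -1.73 ± 0.19 (SE, adjusted p = 3.56e-10). Cyp3a11, the main drug-oxidizing P450 of mouse liver, went the other way. It was at 1963 to 4524 CPM (median 3003) in DN:WT and 4259 to 10691 CPM (median 6474) in DN:HOM livers, the ranges overlapped slightly, and the log2 fold change was 1.14 ± 0.18 (SE, adjusted p = 7.81e-07), or 0.83 with 8 against 8 livers. In DN:HET livers Cyp3a11 averaged 5637 CPM. Cyp1b1, a P450 of non-hepatocyte cells, rose from 0.757 ± 0.413 to 6.09 ± 1.03 CPM (SD, n = 7 each), and Cyp2c55 from 5.31 ± 1.47 to 11.4 ± 2.81 CPM. Cyp2a4 rose on average, from 1.09 ± 1.2 to 6.94 ± 7.09 CPM, but its ranges overlapped and its call was lost without DN:HOM animal 19 (adjusted p 0.074, the highest over the alternatives, the lowest being 0.00224).

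Partners of the P450s, flavin monooxygenases and esterases fell in 25 of 32 cases and rose in 1 (median -0.76, -0.53 with 8 against 8 livers, -0.33 under library size alone). Ces3b, a carboxylesterase of the endoplasmic reticulum (ER), was at 215 to 572 CPM (median 457) in DN:WT and 18.9 to 54.4 CPM (median 34.3) in DN:HOM livers (log2 fold change -3.65 ± 0.30 SE, adjusted p = 4.69e-14, -2.01 with 8 against 8). Ces1e and Ces1f, further carboxylesterases, fell by 2.44 and 1.81, and Aldh3a2, the fatty aldehyde dehydrogenase, fell by 1.46. Fmo2, a monooxygenase, was the 1 gene of this list that rose, from 5.47 ± 1.24 to 15.1 ± 2.8 CPM.

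Enzymes that add glucuronic acid, sulfate or acyl groups fell in 22 of 31 cases and rose in 3 (median -0.86, -0.64 with 8 against 8, -0.43 under library size alone). Sult2a8, a sulfotransferase for bile acids, was at 640 to 1018 CPM (median 805) in DN:WT and 29.2 to 312 CPM (median 110.2) in DN:HOM livers (log2 fold change -2.78 ± 0.32 SE, adjusted p = 8e-10, -1.81 with 8 against 8). Ugt2b1 fell by 2.3. Ugt1a5 fell by 4.21 (adjusted p up to 0.0575 over the alternatives) whereas Ugt1a9 rose by 1.53, but the first exons of the Ugt1a cluster share all later exons, so reads cannot be fully told apart between them. Ugdh, which makes the UDP-glucuronic acid that these enzymes use, rose from 213 ± 22.9 to 386 ± 48.3 CPM, a log2 fold change of 0.87 ± 0.13 (SE, adjusted p = 1.09e-07).

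Glutathione S-transferases split. Of 22 tested, 12 were lower and 9 higher, with a median of -0.44 (-0.29 with 8 against 8, -0.01 under library size alone). The mean of the list by liver was higher in DN:HOM livers while the median was lower, so the list has no single direction. Gsta3, an alpha class enzyme of hepatocytes, was at 1394 to 1783 CPM (median 1573) in DN:WT and 461 to 800 CPM (median 610.5) in DN:HOM livers (log2 fold change -1.38 ± 0.10 SE, adjusted p = 3.66e-15), and Gstt1, Gstk1 and Gstt3 fell by 1.46, 1.24 and 2.59. Among the rises, Gstp2 went from 2.45 ± 0.71 to 55 ± 38.9 CPM, Gsta1 from 5.02 ± 3.31 to 46 ± 18.2 CPM and Gstm3 from 119.7 ± 62.5 to 821 ± 130.4 CPM. Gstm1, the most abundant cytosolic member, was at 1678 ± 423 and 2509 ± 324 CPM and overlapped between groups. It passed (log2 fold change 0.59 ± 0.24 SE, adjusted p = 0.0293) but not with 8 against 8 livers (adjusted p 0.0654) nor without DN:WT animals 13, 28 or 5 or DN:HOM animals 19 or 31, with adjusted p between 0.000342 and 0.0825 over all alternatives. Gene copies of this family are similar, so the split of reads is uncertain.

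**Figure D2:**
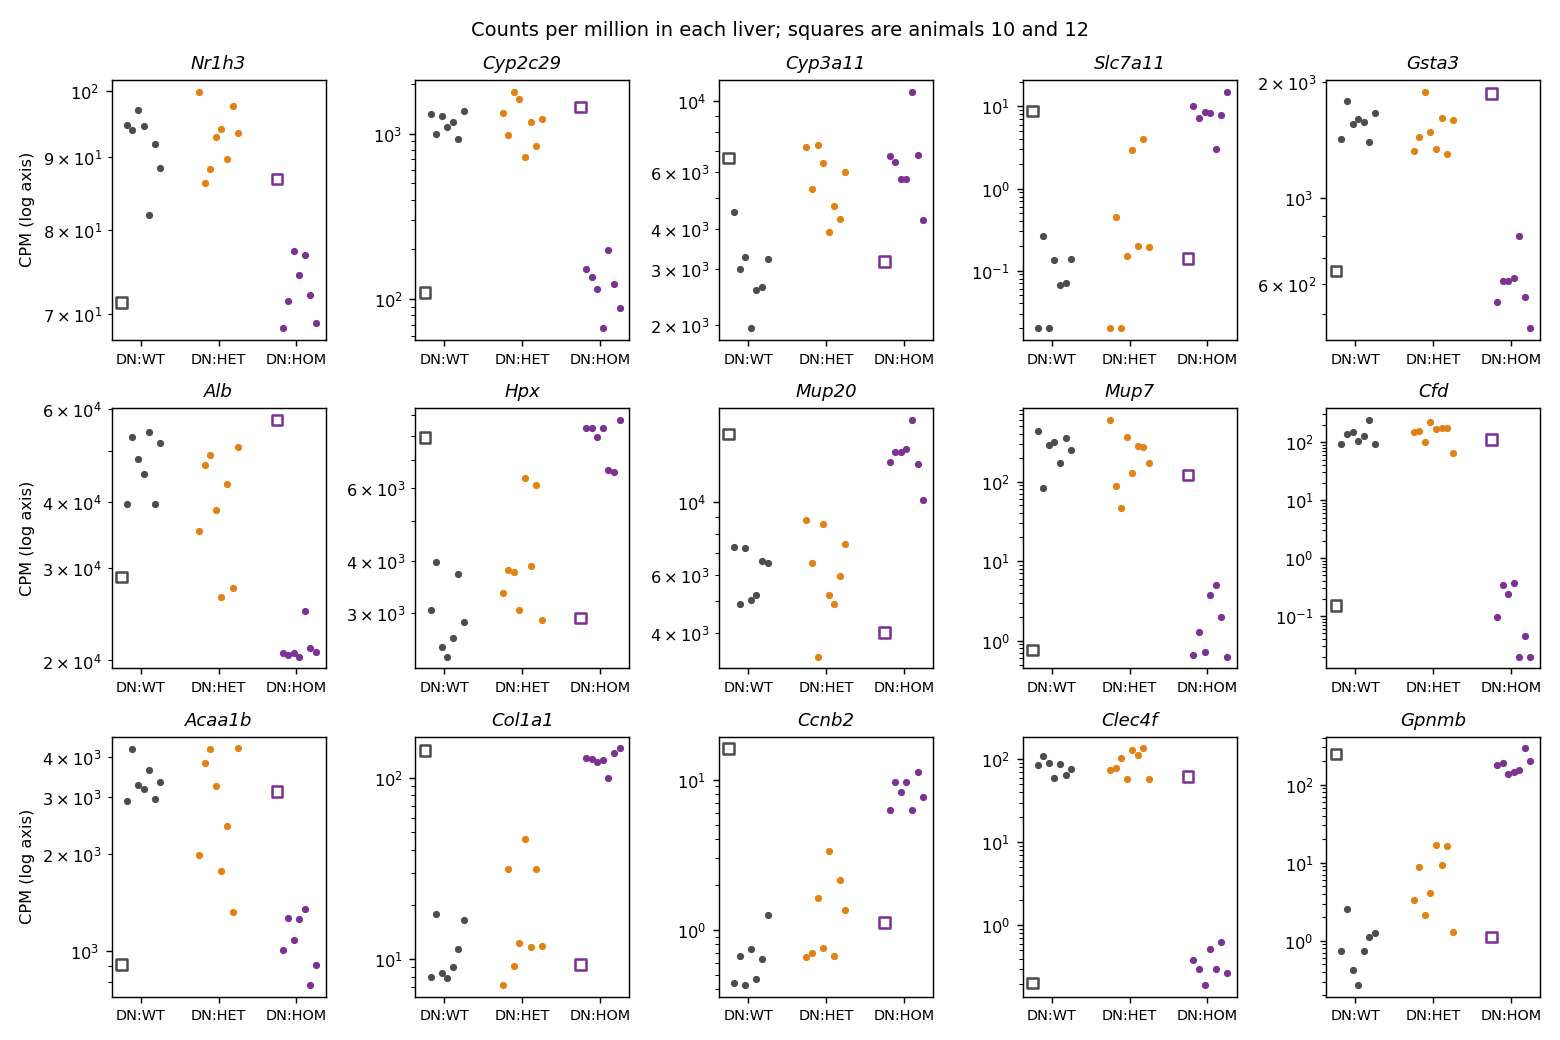
CPM on a log axis in each DN:WT (grey), DN:HET (orange) and DN:HOM (purple) liver for 15 genes, with open squares for animals 10 and 12 and values under 0.02 CPM drawn at 0.02. For Cyp2c29 the 7 purple points (67.1 to 199 CPM) lie below all 7 grey points (924 to 1376 CPM), while the squares lie with the other group.

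Genes of oxidative defence and targets of NRF2, the sensor of electrophiles, rose in 19 of 38 cases and fell in 8 (median 0.41, 0.31 with 8 against 8 livers, and 0.85 with 30 higher and 4 lower under library size alone). The share called was 71.1%, beside the 59.1% of all genes. Among the rises were inducible genes. Slc7a11, the cystine importer that feeds glutathione synthesis, was at 0 to 0.267 CPM (median 0.0707) in DN:WT and 3.06 to 15.2 CPM (median 8.39) in DN:HOM livers, 8.81 CPM for animal 10 against 0.14 CPM for animal 12. Its log2 fold change was 6.34 ± 0.86 (SE, adjusted p = 2.62e-08), and 2.58 with 8 against 8 livers. Cbr3, a carbonyl reductase, went from 0.781 ± 0.315 to 34.4 ± 13.3 CPM, and the metal-binding metallothioneins Mt1 and Mt2 from 9.05 ± 5.95 to 93.2 ± 41 and from 4.17 ± 1.96 to 72.6 ± 33.5 CPM. Among the falls were abundant enzymes. Cat, the catalase of peroxisomes, was at 2724 to 3382 CPM (median 3156) in DN:WT and 1302 to 2027 CPM (median 1599) in DN:HOM livers (log2 fold change -0.93 ± 0.09 SE, adjusted p = 1.32e-11). Sod1 and Prdx6, which remove superoxide and peroxides, fell by 0.93 and 0.97. Me1, which makes NADPH from malate and is also a lipogenic gene, fell by 2.6.

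Transporters of drugs and bile salts fell in 15 of 23 cases and rose in 6 (median -0.55, -0.43 with 8 against 8 livers, -0.12 under library size alone). Among uptake carriers, Slco1a1 was at 283 to 597 CPM (median 437) in DN:WT and 20.8 to 61.6 CPM (median 35.7) in DN:HOM livers (log2 fold change -3.51 ± 0.46 SE, adjusted p = 1.2e-08, -2.06 with 8 against 8), Slc22a7 fell by 3.56 and Slco2b1 by 1.41. Among ATP-driven exporters, Abcc4, Abcc1 and Abcb1a rose by 2.56, 2.21 and 2.12. Abcc4 averaged 1.32 ± 0.482 and 7.78 ± 2.69 CPM (SD, n = 7 each).

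Hepatocytes secrete most proteins of plasma. Of 51 such genes tested, 31 were lower, 7 higher and 13 not called, a share of 74.5% called beside the 59.1% of all genes. Their median of -0.31 (-0.23 with 8 against 8) became 0.12 under library size alone, where 20 were higher and 13 lower. Alb, albumin, was at 39605 to 54252 CPM (median 48307) in DN:WT and 20348 to 24821 CPM (median 20657) in DN:HOM livers. Animal 10 had 28780 CPM and animal 12 57219 CPM, and the log2 fold change was -1.14 ± 0.13 (SE, adjusted p = 1.85e-10), or -0.81 with 8 against 8 livers. The protease inhibitors Serpina1d, Serpina3k and Serpina1c, of gene families with near-identical copies, fell by 1.74, 1.36 and 1.25. Hpx, hemopexin, the plasma carrier of free heme, was at 2354 to 3973 CPM (median 2845) in DN:WT and 6549.7 to 8731 CPM (median 8338) in DN:HOM livers, with no overlap (log2 fold change 1.4 ± 0.17 SE, adjusted p = 3.77e-09). Pros1, protein S of the anticoagulant pathway, and Serpina10, an inhibitor of factor X, rose by 0.84 and 0.82. Trf, transferrin, rose by 0.34 (from 10543 ± 981 to 13217 ± 836 CPM), with an adjusted p up to 0.129 over the alternatives, in the fit of the 16 livers of these groups alone.

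Complement components were higher in 7 of 25 cases and lower in 8, a share of 60% called beside the 59.1% of all genes, and under library size alone 16 were higher and 5 lower with a median of 0.49 (main median 0.06, 0.02 with 8 against 8, while the list's mean by liver was lower in DN:HOM livers, and -0.02 without DN:WT animal 17 or -0.01 without DN:HOM animal 33). C1qa, C1qb and C1qc, the recognition subunits that macrophages make, rose by 1.8, 1.88 and 1.51. C1qb was at 23 to 49.4 CPM (median 31.3) in DN:WT and 91.3 to 146 CPM (median 131) in DN:HOM livers. C3, the central component, rose from 3231 ± 449 to 6230.2 ± 576 CPM. Mbl2, a mannose-binding lectin, and C8g, a subunit of the terminal complex, fell by 1.32 and 1.09. Cfd, factor D or adipsin, which is best known as an adipocyte protein, was at 92 to 240.4 CPM (median 127) in DN:WT livers and 0 to 0.377 CPM (median 0.0947) in DN:HOM livers, the largest fall of any listed gene (log2 fold change -9.68 ± 0.93 SE, adjusted p = 5.25e-12). With 8 against 8 livers it was -3.14 (adjusted p up to 0.0772 over the alternatives), and animal 12 had 110.2 CPM and animal 10 0.152 CPM.

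Acute phase proteins, which hepatocytes secrete in inflammation, rose in 15 of 26 cases and fell in 4 (median 0.76, 0.50 with 8 against 8 livers, and 1.19 with 19 higher and 2 lower under library size alone). Called members were 73.1% of the list, beside 59.1% of all genes. Lcn2, which binds bacterial siderophores, was at 9.37 to 60 CPM (median 13.6) in DN:WT and 311 to 1034 CPM (median 687) in DN:HOM livers (log2 fold change 4.76 ± 0.71 SE, adjusted p = 1.85e-07, 2.04 with 8 against 8, adjusted p up to 0.1 over the alternatives). Il1rn, the interleukin-1 receptor antagonist, Orm2, an acid glycoprotein, and Socs3, the feedback inhibitor of cytokine receptors, rose by 3.68, 2.98 and 2.15. Hp, haptoglobin, which carries free haemoglobin, rose from 2875 ± 886 to 7533 ± 965 CPM. Serpina3m fell by 1.44, in the same direction as its neighbour Serpina3k, with which it shares bases on 1 strand.

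Major urinary proteins, pheromone carriers that male mouse liver secretes in bulk, were called lower in 18 of 19 cases (median -3.82, -2.33 with 8 against 8 livers), while the summed level of the family overlapped between groups, at 13980 to 24640 CPM (median 19350) in DN:WT and 11180 to 19660 CPM (median 15390) in DN:HOM livers. Mup7 was at 82.6 to 434 CPM (median 289) in DN:WT and 0.633 to 4.98 CPM (median 1.28) in DN:HOM livers, 0.759 CPM for animal 10 against 120 CPM for animal 12 (log2 fold change -7.07 ± 0.92 SE, adjusted p = 1.03e-08, -3.86 with 8 against 8). Mup12, Mup1 and Mup17 fell by 5.82, 5.74 and 5.35. Mup20, also called darcin, the male pheromone itself, rose, at 4904 to 7332 CPM (median 6560.1) in DN:WT and 10175 to 17728 CPM (median 14190) in DN:HOM livers with no overlap (log2 fold change 1.19 ± 0.28 SE, adjusted p = 0.000286, 0.78 with 8 against 8). Mup3 fell in the same livers from 10968 ± 1504 to 1235 ± 325 CPM. The annotated Mup3 gene spans Mup20 on the same strand, and the genes of this cluster on chromosome 4 are near-identical. Reads that matched several places or several overlapping genes were counted for none of them. The levels of single members and the sum of the family are therefore both uncertain.

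All mice were male, and liver genes that differ between the sexes moved in both directions. Male-biased genes fell in 12 of 21 cases and rose in 1, a share of 61.9% called beside the 59.1% of all genes (median -0.99, -0.81 with 8 against 8, -0.58 under library size alone). The list's mean by liver overlapped between the groups of 7, at -0.82 to 0.55 in DN:WT and -1.98 to -0.61 in DN:HOM livers on the log2 scale relative to DN:WT. Hsd3b5, a steroid-reducing enzyme of male liver, was at 28.8 to 194 CPM (median 142) in DN:WT and 0.226 to 4.93 CPM (median 1.58) in DN:HOM livers (log2 fold change -5.84 ± 0.96 SE, adjusted p = 1.39e-06, -3.04 with 8 against 8), and Elovl3, a fatty acid elongase, fell by 2.92. Female-biased genes fell in 10 of 17 and rose in 5, and their median of -2.08 was -1.36 with 8 against 8 livers and became 0.29 to 0.55 in fits of the knock-in groups or of the compared groups alone, where other members passed the filter on low counts. Cyp17a1 fell by 3.28, and Cyp4a14, a fatty acid hydroxylase, by 3.95, the latter with an adjusted p of 0.0708 for 8 against 8 livers and from 1.44e-07 to 0.131 over the alternatives. Prom1 and Atp6v0d2, a membrane protein also found on ducts and a proton pump subunit also found in macrophages, rose by 3.95 and 3.91. Ghr, the growth hormone receptor, fell from 603 ± 61.2 to 257 ± 46.3 CPM (log2 fold change -1.22 ± 0.11 SE, adjusted p = 7.78e-13).

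Of 56 genes for ER translocation, glycosylation and coated vesicles, 23 were lower, 8 higher and 25 not called, a share of 55.4% called against 59.1% of all genes, and the median of -0.11 (-0.09 with 8 against 8) became 0.32 under library size alone, where 40 were higher and 4 lower. Sar1b, the GTPase that starts vesicle budding from the ER, was at 186 to 243 CPM (median 219) in DN:WT and 93.9 to 131 CPM (median 101) in DN:HOM livers (log2 fold change -1.01 ± 0.10 SE, adjusted p = 4.18e-12). The cargo receptors Lman1 and Lman2 and the coat subunit Sec24a fell by 0.87, 0.93 and 0.81, and Rpn1, of the glycosylating complex, rose by 0.40. ER chaperones and genes of the unfolded protein response were lower in 13 of 29 cases and higher in 1, a share of 48.3% called against 59.1% of all genes, and the median of -0.28 (-0.21 with 8 against 8) became 0.15 with 6 higher and 3 lower under library size alone. Edem1, Sel1l and Derl2, of the pathway that removes misfolded proteins from the ER, fell by 0.86, 0.84 and 0.82, and Pdia5, a disulfide isomerase, rose by 0.72. Hspa5, the main ER chaperone, had a log2 fold change of -0.32 ± 0.19 (SE, adjusted p = 0.153) and did not pass.

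Genes of the integrated stress response, which follows amino acid shortage or ER stress, rose in 14 of 26 cases and fell in 3, a share of 65.4% called beside the 59.1% of all genes (median 0.59, 0.43 with 8 against 8 livers, and 1.02 with 19 higher and 1 lower under library size alone). Atf3, a stress-induced transcription factor, was at 1.16 to 7.27 CPM (median 1.95) in DN:WT and 9.96 to 27.3 CPM (median 18.9) in DN:HOM livers (log2 fold change 2.86 ± 0.44 SE, adjusted p = 3.53e-07, 1.64 with 8 against 8). Asns, asparagine synthetase, and Aldh18a1, of proline synthesis, rose by 2.54 and 1.85, and Slc7a11 belongs to this list too. Shmt2, of mitochondrial serine metabolism, fell by 0.93, and Atf5, a factor of this response, by 0.74. For Atf5 the call was lost under library size alone (adjusted p 0.12, the highest over the alternatives, the lowest being 0.00012). The summed level of the list was lower in DN:HOM livers, at 713 to 956 CPM against 914 to 1120 CPM in DN:WT livers, while its median log2 fold change was above 0.

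Mitochondria make most ATP of hepatocytes through a chain of protein complexes. Subunits of complex I, which takes electrons from NADH, were lower in 32 of 36 cases (median -0.49, -0.38 with 8 against 8 livers), and under library size alone the median was -0.06 with 5 lower and 3 higher. Ndufs1 was at 135 to 166 CPM (median 149.7) in DN:WT and 72.4 to 104.2 CPM (median 83.5) in DN:HOM livers (log2 fold change -0.79 ± 0.09 SE, adjusted p = 6.95e-10). Complexes II and III were lower in 14 of 14 cases (median -0.56, -0.46 with 8 against 8, and -0.13 with 5 lower and 1 higher under library size alone), with Sdhb and Sdha, of succinate dehydrogenase, down by 1.05 and 0.92. Complex IV subunits were lower in 10 of 12 and higher in 1, with a median of -0.38 (-0.33 with 8 against 8) that became 0.05 with 4 higher and 0 lower under library size alone, and Cox7b and Cox5a fell by 0.56 and 0.54 but did not pass under library size alone (adjusted p 0.16 and 0.14, from 2.14e-08 and 9.84e-10 over the other end of the alternatives). ATP synthase subunits were lower in 16 of 19 (median -0.44, -0.36 with 8 against 8, and -0.01 with 5 higher and 3 lower under library size alone). Its inhibitor Atp5if1 rose from 12.1 ± 2.48 to 29.8 ± 3.82 CPM.

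The 13 proteins encoded in mitochondrial DNA were all called lower, with a median of -0.88, which was -0.66 with 8 against 8 livers and -0.45 under library size alone, where 11 of 13 were called. mt-Nd5 was at 3597 to 5344 CPM (median 4492) in DN:WT and 1416 to 2653 CPM (median 2270) in DN:HOM livers (log2 fold change -0.97 ± 0.12 SE, adjusted p = 5.25e-09). Their sum was 53350 to 73310 CPM in DN:WT and 27710 to 43950 CPM in DN:HOM livers, with 44970 in animal 10 and 68720 in animal 12. The ribosome, import machinery and biogenesis factors of mitochondria were lower in 38 of 53 cases and higher in 1, a share of 73.6% called beside the 59.1% of all genes. Their median of -0.28 (-0.24 with 8 against 8) became 0.15 under library size alone, where 24 were higher and 4 lower. Hspd1, a chaperonin, and Mrps10, a ribosomal protein, fell by 0.72 and 0.69.

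Acetyl groups and fatty acids are burned in mitochondria and, for long or branched chains, first in peroxisomes. The tricarboxylic acid cycle and pyruvate dehydrogenase were lower in 19 of 21 cases (median -0.60, -0.44 with 8 against 8, -0.18 under library size alone), with Pcx, pyruvate carboxylase, at 711 to 819 CPM (median 781) in DN:WT and 309 to 364 CPM (median 317) in DN:HOM livers (log2 fold change -1.24 ± 0.12 SE, adjusted p = 1.01e-11), Pdhb down by 1.02 and Idh2 up by 0.41. Mitochondrial beta-oxidation and ketogenesis were lower in 23 of 24 cases (median -0.76, -0.57 with 8 against 8 livers, -0.34 under library size alone). Acat1, a thiolase that joins and splits acetyl groups, was at 509.6 to 611 CPM (median 547) in DN:WT and 196 to 321 CPM (median 254) in DN:HOM livers (log2 fold change -1.09 ± 0.11 SE, adjusted p = 2.46e-11). Peroxisomal genes were lower in 28 of 32 cases and higher in 2 (median -0.72, -0.56 with 8 against 8, -0.29 under library size alone). Acaa1b, a peroxisomal thiolase, was at 2918 to 4228 CPM (median 3271) in DN:WT and 783 to 1348 CPM (median 1079) in DN:HOM livers, 908 CPM for animal 10 against 3126 CPM for animal 12 (log2 fold change -1.61 ± 0.20 SE, adjusted p = 3.79e-09, -1.18 with 8 against 8). Abcd3 and Pex16, a fatty acid importer and a biogenesis factor, fell by 1.39 and 1.33, while Far1, of ether lipid synthesis, rose by 1.42. Ppara, the receptor that induces many of these genes, fell from 117 ± 28.8 to 42.2 ± 8.22 CPM (log2 fold change -1.47 ± 0.17 SE, adjusted p = 5.66e-10).

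Enzymes of the urea cycle and amino acid breakdown fell in 46 of 48 cases and rose in 0 (median -0.99, -0.72 with 8 against 8 livers, -0.57 under library size alone). Bhmt, which remethylates homocysteine, was at 3512 to 7238 CPM (median 5151) in DN:WT and 751 to 1442 CPM (median 937) in DN:HOM livers (log2 fold change -2.35 ± 0.23 SE, adjusted p = 5.42e-12, -1.5 with 8 against 8). Dmgdh, of choline breakdown, Hpd, of tyrosine breakdown, and Ahcy, of the methionine cycle, fell by 1.98, 1.92 and 1.88, and Cps1, the entry enzyme of the urea cycle, fell by 1.38. Genes of glucose and glycogen metabolism were lower in 21 of 31 cases and higher in 5 (median -0.64, -0.49 with 8 against 8, and -0.22 with 15 lower and 9 higher under library size alone). Pklr, the pyruvate kinase of liver, was at 351 to 682 CPM (median 499.8) in DN:WT and 124 to 185 CPM (median 152) in DN:HOM livers (log2 fold change -1.81 ± 0.22 SE, adjusted p = 2.92e-09), whereas Pkm, that of most other tissues, rose by 1.84. Likewise Pfkp, a phosphofructokinase of other tissues, rose by 1.57, and Ppp1r3b, which directs a phosphatase to glycogen, fell by 2.55.

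**Figure D3:**
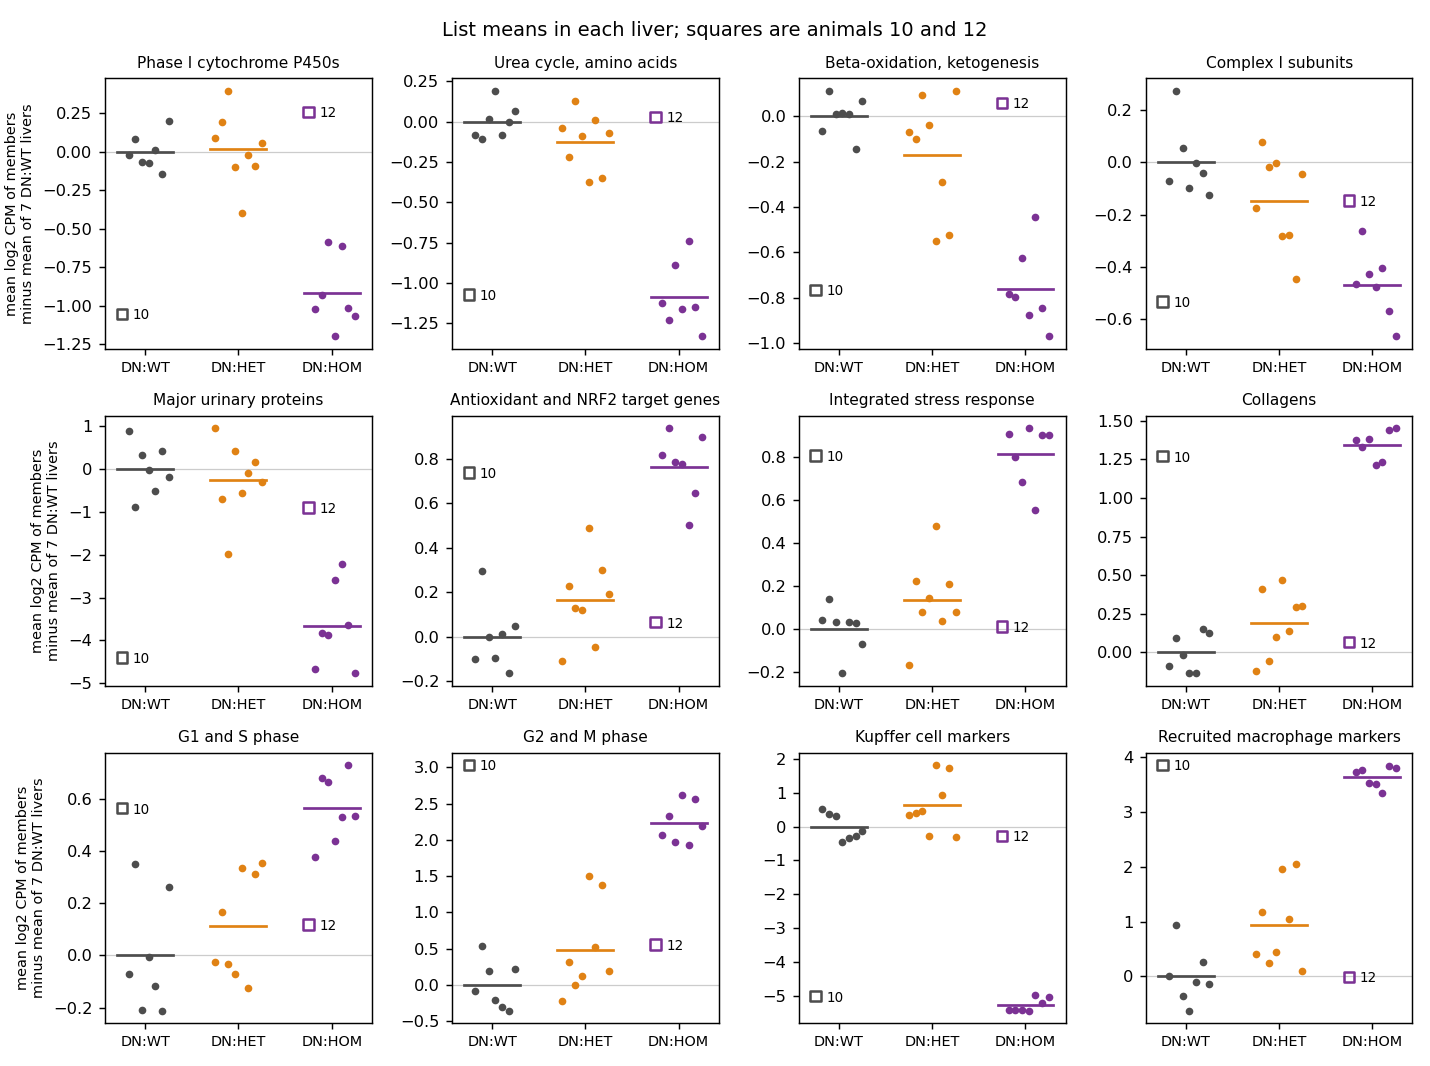
Mean log2 CPM of the members of 12 lists in each DN:WT, DN:HET and DN:HOM liver, relative to the mean of 7 DN:WT livers, with bars for the group means without animals 10 and 12 (open squares). The 7 DN:HOM points lie apart from the 7 DN:WT points in all 12 panels, and animal 10 lies with the DN:HOM points in each.

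Extracellular matrix is the scaffold of collagens and glycoproteins around cells, and liver lays down more of it in fibrosis. Of 26 collagen genes tested, 19 were higher, 4 lower and 3 not called (median 1.66, 1.18 with 8 against 8 livers). Col1a1 (ENSMUSG00000001506, chr11:94827050-94843868 of GRCm39), a chain of the main fibril collagen, was at 7.84 to 17.7 CPM (median 9.03) in DN:WT and 100.1 to 145 CPM (median 127) in DN:HOM livers, 141 CPM for animal 10 against 9.37 CPM for animal 12. Its log2 fold change was 3.5 ± 0.46 (SE, adjusted p = 1.14e-08), and 2.01 with 8 against 8 livers. The fibril collagen Col3a1, the basement membrane chain Col4a5 and the beaded filament chain Col6a3 rose by 2.98, 3.22 and 3.1. Against these, Col27a1, a fibril collagen, fell by 1.36, and Col18a1, the endostatin precursor that hepatocytes make, was the most abundant collagen in DN:WT livers and fell from 808 ± 89.5 to 542 ± 41.5 CPM. The fall of Col18a1 did not pass under library size alone (adjusted p 0.066, the highest over the alternatives, the lowest being 2.6e-12).

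Matrix glycoproteins and proteoglycans rose in 37 of 44 cases and fell in 2 (median 1.63, 1.19 with 8 against 8 livers). Spp1 was at 22 to 62.1 CPM (median 33.5) in DN:WT and 661 to 1005 CPM (median 827) in DN:HOM livers (log2 fold change 4.57 ± 0.45 SE, adjusted p = 9.35e-12, 2.16 with 8 against 8, adjusted p up to 0.058 over the alternatives). Lum, a proteoglycan that spaces collagen fibrils, was at 4.21 to 8.98 CPM (median 5.78) in DN:WT and 65.6 to 108 CPM (median 83.2) in DN:HOM livers (log2 fold change 3.85 ± 0.27 SE, adjusted p = 5.92e-16, 2.0 with 8 against 8). Thbs1, thrombospondin, and Tnc, tenascin, both of healing tissue, rose by 3.58 and 3.57, and Ecm1, a matrix protein of stellate cells and hepatocytes, fell by 1.48.

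Enzymes that process or degrade matrix rose in 40 of 48 cases and fell in 4 (median 1.98, 1.38 with 8 against 8 livers). Mmp7, a metalloproteinase of epithelia including injured ducts, was at 0 to 0.296 CPM (median 0) in DN:WT and 4.97 to 10 CPM (median 6.67) in DN:HOM livers (log2 fold change 6.14 ± 0.81 SE, adjusted p = 1.61e-08, 3.12 with 8 against 8). Timp1, an inhibitor of these proteases, Mmp12, the macrophage elastase, and Adam8, of leukocytes, rose by 4.73, 4.57 and 3.73. Plod1, a lysyl hydroxylase, and Mmp19 fell by 1.0 and 0.75. Of cell types that make matrix, the stellate markers Pdgfrb, a growth factor receptor, and Acta2, smooth muscle actin, rose by 1.97 and 1.17. The sums given above of duct and macrophage markers and the mean level of stellate markers moved with the matrix genes, while the sums of stellate markers overlapped between groups, and their part in this result was not tested.

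Cells that divide pass from growth (G1) and DNA synthesis (S) to a gap (G2) and mitosis (M). Of 43 genes of the G2 and M phases tested, 41 were higher and 1 lower (median 2.53, 1.22 with 8 against 8 livers), and the 7 DN:HOM livers lay above the 7 DN:WT livers for all 41, where the groups did not overlap for 33.5% of all genes. Ccnb2, a cyclin that drives entry into mitosis, was at 0.428 to 1.25 CPM (median 0.637) in DN:WT and 6.25 to 11.2 CPM (median 8.31) in DN:HOM livers, 16.1 CPM for animal 10 against 1.12 CPM for animal 12. Animal 10 was thus above every DN:HOM liver, and the log2 fold change was 3.66 ± 0.37 (SE, adjusted p = 1.93e-11), or 1.49 with 8 against 8 livers (adjusted p up to 0.11 over the alternatives). Plk1, a mitotic kinase, was at 0.0707 to 0.667 CPM (median 0.487) in DN:WT and 3.5 to 6.5 CPM (median 5.71) in DN:HOM livers (log2 fold change 3.47 ± 0.45 SE, adjusted p = 1.12e-08, 1.32 with 8 against 8, adjusted p up to 0.148 over the alternatives). Ccnb1, the partner cyclin, and Hmmr, of the spindle, rose by 3.5 and 3.53, and neither passed with 8 against 8 livers (adjusted p 0.0592 and 0.0808, with ranges over the alternatives of 2.64e-12 to 0.161 and 1.34e-12 to 0.193). These 4 are rare transcripts, with at most 11.2 CPM in any of the 7 DN:HOM livers. Ccnf, a cyclin of the same list, went from 18.9 ± 5.9 to 7.85 ± 2.7 CPM and fell by 1.26. Which cells held these transcripts was not measured. The marker sums given above of recruited macrophages (69.1 to 140 CPM in DN:WT and 572 to 859 CPM in DN:HOM livers), neutrophils (3.48 to 6.61 and 32.2 to 86.4 CPM) and ducts (30.9 to 72.6 and 744 to 1091 CPM) moved with the cell cycle genes, and their part in this result was not tested.

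Genes of the G1 and S phases rose in 23 of 41 cases and fell in 1, a share of 58.5% called that is near the 59.1% of all genes (median 0.46, 0.32 with 8 against 8 livers, and 0.89 with 33 higher and 1 lower under library size alone). Ccnd1, the cyclin of growth signals, was at 15.6 to 50.4 CPM (median 17.7) in DN:WT and 89.8 to 146 CPM (median 108) in DN:HOM livers (log2 fold change 2.18 ± 0.35 SE, adjusted p = 7.77e-07). Uhrf1, Mcm6 and Lig1, of chromatin copying, the replicative helicase and DNA ligation, rose by 2.3, 1.76 and 1.54, and Mcm10, another replication factor, fell from 75.8 ± 12.8 to 24.3 ± 9.29 CPM (log2 fold change -1.63 ± 0.21 SE, adjusted p = 5.74e-09). Among inhibitors of cyclin-dependent kinases and p53 targets, 15 of 29 were higher and 5 lower, a share of 69% called beside the 59.1% of all genes (median 0.45, 0.30 with 8 against 8, and 0.88 with 20 higher and 0 lower under library size alone). Gadd45b and Phlda3, which respond to stress and DNA damage, rose by 3.11 and 2.67, the inhibitor Cdkn2c went from 3.68 ± 0.578 to 17.9 ± 2.46 CPM, and Btg2 rose by 1.18. Gadd45a had a log2 fold change of -0.99 ± 0.32 (SE, adjusted p = 0.00675), which did not pass under library size alone (adjusted p 0.12, the highest over the alternatives, the lowest being 0.000526). Cdkn1a, the p21 inhibitor, was at 2.93 to 18.1 CPM (median 5.87) in DN:WT and 13 to 19.2 CPM (median 15.7) in DN:HOM livers and did not pass (log2 fold change 0.80 ± 0.58 SE, adjusted p = 0.237), but it did in the fits of the knock-in groups alone and of the compared groups alone.

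Promoters of mitotic genes are known for a pair of short sequences, the CHR element TTTGAA and the CCAAT box. RefSeq promoters (GRCm38.p6, from 250 bases before to 50 after the start) were found for 37 of the 43 G2 and M genes and 32 of the 41 G1 and S genes. TTTGAA was on either strand in 30 of 39 G2 and M promoters (76.9%), in 6 of 41 G1 and S promoters (14.6%) and in 17.9% of all 32851 promoters. CCAAT was in 31 (79.5%), 25 (61%) and 37.4%. These are descriptions of letters, not of sites in use. The promoters of the 3 genes Ccnb1, Ccnb2 and Hmmr are shown from 120 bases before to 30 after the start, on the strand of the gene, because their transcripts were among the 4 largest rises of the list. TTTGAA and CCAAT, or CCAAT read from the other strand (ATTGG), are in capitals. They lie at chr13:100786457-100786606, chr9:70421525-70421674 and chr11:40733408-40733557 of GRCm38.p6, all on the minus strand.
Ccnb1: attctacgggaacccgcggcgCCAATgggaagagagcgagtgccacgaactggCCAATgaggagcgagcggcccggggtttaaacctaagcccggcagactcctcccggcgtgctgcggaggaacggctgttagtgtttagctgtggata
Ccnb2: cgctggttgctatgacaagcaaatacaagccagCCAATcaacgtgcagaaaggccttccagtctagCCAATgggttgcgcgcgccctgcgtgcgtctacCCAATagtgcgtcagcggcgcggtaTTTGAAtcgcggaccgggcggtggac
Hmmr: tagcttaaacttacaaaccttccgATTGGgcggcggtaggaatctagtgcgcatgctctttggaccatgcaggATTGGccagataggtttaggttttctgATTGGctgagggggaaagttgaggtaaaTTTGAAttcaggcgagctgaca

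**Figure D4:**
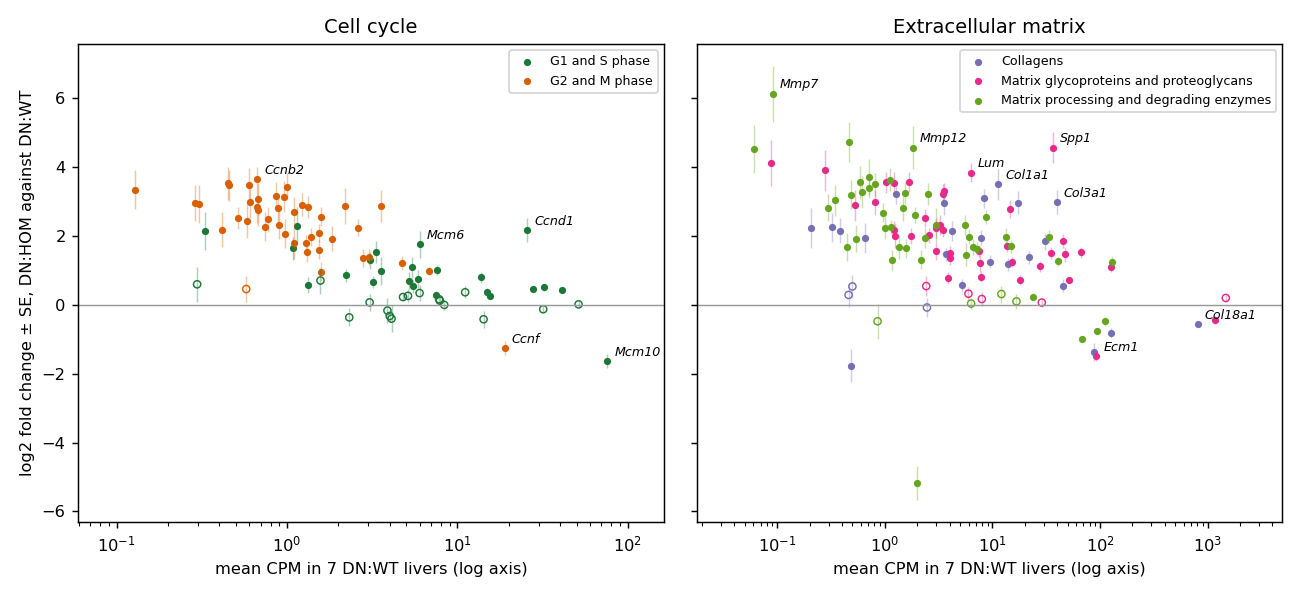
Log2 fold change ± standard error of each tested cell cycle gene (left) and matrix gene (right) in DN:HOM against DN:WT livers, plotted against its mean CPM in 7 DN:WT livers on a log axis, with filled points for called and open points for not called genes. Of the G2 and M genes 41 are called higher and lie above 0, while Ccnf and, among G1 and S genes, Mcm10 lie below 0.

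Lysosomal genes rose in 36 of 52 cases and fell in 6 (median 0.42, 0.29 with 8 against 8 livers, and 0.85 with 49 higher and 0 lower under library size alone). Cd63, a tetraspanin of late endosomes, was at 3.34 to 12.3 CPM (median 5.11) in DN:WT and 103 to 175 CPM (median 158) in DN:HOM livers (log2 fold change 4.71 ± 0.36 SE, adjusted p = 6.53e-15, 2.24 with 8 against 8, adjusted p up to 0.0521 over the alternatives). Ctss, a protease of macrophages, and Cd68, their lysosomal glycoprotein, rose by 3.21 and 2.48. Genes of the cytoskeleton and its links to the membrane rose in 37 of 45 cases and fell in 4 (median 1.35, 0.93 with 8 against 8, and 1.78 with 40 higher and 0 lower under library size alone). Lgals3, galectin-3, went from 5.87 ± 2.08 to 98.4 ± 27 CPM, and Tagln2 and Capg, actin-binding proteins, rose by 3.29 and 3.32. Krt8, a keratin that hepatocytes and duct cells both make, was at 280.3 to 439 CPM (median 322) in DN:WT and 651 to 1714 CPM (median 1246) in DN:HOM livers (log2 fold change 1.83 ± 0.19 SE, adjusted p = 2.46e-11). Tubb2a, a tubulin, went down by 1.22 on average, with overlapping groups, and did not pass with 8 against 8 livers (adjusted p 0.108, from 0.0016 to 0.119 over the alternatives). The sums given above of recruited macrophage, neutrophil and duct markers moved with the lysosomal and the cytoskeleton genes, and their part in these results was not tested.

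Iron and heme genes were lower in 15 of 31 cases and higher in 8, a share of 74.2% called beside the 59.1% of all genes. Their median of -0.23 (-0.18 with 8 against 8) became 0.19 with 15 higher and 3 lower under library size alone. Steap2, a metal reductase, and Hmox1, which breaks heme down, rose by 2.3 and 1.21. Hamp2, a hepcidin, was at 3.25 to 36.9 CPM (median 15.1) in DN:WT and 0.541 to 1.54 CPM (median 0.90) in DN:HOM livers (log2 fold change -4.02 ± 0.78 SE, adjusted p = 2.32e-05, -2.16 with 8 against 8, adjusted p up to 0.0508 over the alternatives), and Cpox, of heme synthesis, fell by 1.34. Alas2, the heme synthesis enzyme of red cell precursors, fell by 1.4, in a list of red cell genes of which 2 of 6 were lower (33.3%, below the 59.1% of all genes), and 1 with 8 against 8 livers. The mean of that list overlapped between groups. Clock genes were lower in 9 of 19 cases and higher in 0, a share of 47.4% called against 59.1% of all genes (median -0.57, -0.43 with 8 against 8, and -0.15 with 3 lower under library size alone), with Cry1 down by 1.17 and Per2 by 0.87, the latter overlapping between groups and not called under library size alone (adjusted p 0.0524, from 7.52e-05 to 0.0627 over the alternatives). The times of day at which the mice were killed were not used here. Transcription factors and receptors of hepatocytes were lower in 16 of 29 cases and higher in 4, a share of 69% called beside the 59.1% of all genes, with a median of -0.34 (-0.29 with 8 against 8) that became 0.10 with 11 higher and 6 lower under library size alone. Nr1i3, a receptor that induces detoxification genes, was at 206 to 409.7 CPM (median 271) in DN:WT and 97.3 to 222 CPM (median 119.7) in DN:HOM livers (log2 fold change -1.03 ± 0.20 SE, adjusted p = 2.39e-05), and Ahr, the dioxin receptor, rose by 0.57.

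Ranked by CPM instead of fold, few transcripts held much of the change. The 10 largest losses made up 33.1% of all summed CPM lost, and the 10 largest gains 32.5% of all gained. Scd1, the desaturase that LXRα is known to induce, had the largest loss and was at 22534 to 45317 CPM (median 42381) in DN:WT and 350.2 to 1088 CPM (median 791) in DN:HOM livers, 1211 CPM for animal 10 against 42402 CPM for animal 12 (adjusted p up to 0.056 over the alternatives). Next came Alb, given above, and Apoe, an apolipoprotein of remnant clearance, at 27334 ± 2901 and 14558 ± 920.2 CPM, whose call was lost with 8 against 8 livers (adjusted p 0.0562, from 9.94e-08 to 0.154 over the alternatives). Other losses were of mt-Co1 (26398 ± 3385 to 14250 ± 1674 CPM) and mt-Cytb of the respiratory chain, Mup3, Cyp2e1, Serpina3k and the apolipoprotein Apoa2 (down by 1.51). The gains were of the secreted proteins Mup20, Hpx, Hp, C3, Trf, Clu (clusterin, from 1221 ± 87.3 to 2770.1 ± 365 CPM) and Cp (ceruloplasmin, up by 0.77), and of Cyp3a11, Krt8 and Gstm1. Hence 7 of the 10 gains were of genes for plasma or urinary proteins, as were the losses of Alb, Apoe, Mup3, Serpina3k and Apoa2.

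**Figure D5:**
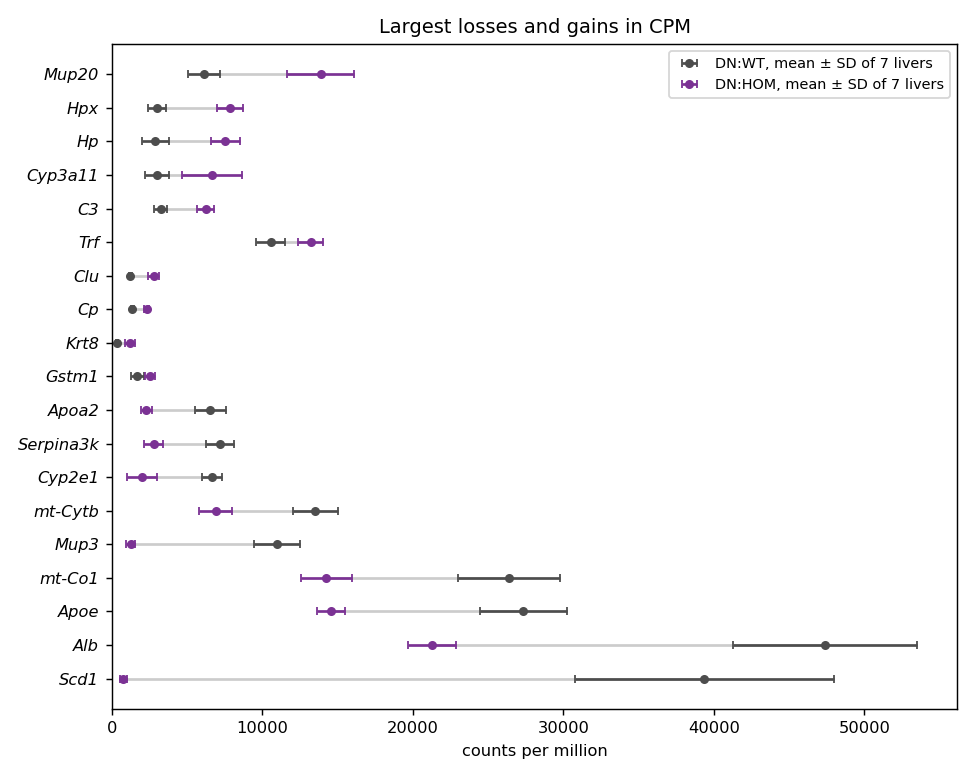
Mean CPM ± SD of 7 DN:WT (grey) and 7 DN:HOM (purple) livers for the genes with the 10 largest gains and for 9 of the 10 with the largest losses in mean CPM. Mup20 gains the most, from 6136 to 13875 CPM, and Scd1 loses the most, from 39369 to 759 CPM.

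Some of the largest rises were of genes on none of the lists. Gipc2, a scaffold protein, was at 0.0681 to 0.405 CPM (median 0.074) in DN:WT and 18.1 to 38.2 CPM (median 30.4) in DN:HOM livers (log2 fold change 7.33 ± 0.48 SE, adjusted p = 1.52e-16, 2.75 with 8 against 8, adjusted p up to 0.0506 over the alternatives). Rasal1, a Ras inactivator, Cpe, a carboxypeptidase of hormone processing, Sprr1a, an injury-induced envelope protein, and Rragd, a GTPase of lysosomal nutrient sensing, rose by 6.76, 6.4, 5.61 and 4.91, with adjusted p up to 0.0679, 0.0653 and 0.083 over the alternatives for the first 3. Rragd was at 0.928 to 2.14 CPM (median 1.41) in DN:WT and 29.1 to 52.8 CPM (median 46.2) in DN:HOM livers. Of immune genes, H2-M2, of the class I family, Ubd, a ubiquitin-like protein, Cd14, the endotoxin co-receptor, and Ms4a7, of macrophages, rose by 6.51, 6.43, 5.23 and 5.01, with an adjusted p up to 0.0694 for Cd14. Meg3, an imprinted long RNA, rose from 0.81 ± 0.378 to 28 ± 11.8 CPM, with 14.2 CPM for animal 10 against 1.26 CPM for animal 12.

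Among falls outside the lists, Cidea, of lipid droplets, Mfsd2a, a lysophospholipid carrier, and the lipogenic Thrsp and Fasn went down by 7.03, 6.23, 5.67 and 4.95. Inmt, an indole and thioether methyltransferase, was at 769 to 1376 CPM (median 878) in DN:WT and 22.2 to 92.8 CPM (median 47.3) in DN:HOM livers (log2 fold change -4.14 ± 0.23 SE, adjusted p = 1.91e-18, -2.46 with 8 against 8). Cyp4a10, a fatty acid hydroxylase, Adam11, and the unnamed transcript Gm31583 fell by 3.49, 3.46 and 3.46, and the pseudogene Serpina4-ps1 by 3.49. The adjusted p was up to 0.101 for Cyp4a10 and 0.0543 for Serpina4-ps1 over the alternatives.

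Heterozygous livers of the same line, which share the DN:WT controls and so are set beside the result rather than compared with it, had few called genes. DN:HET against DN:WT gave 361 called genes (2.3%), 350 higher and 11 lower, and 39 with all 48 livers. That count rested on single controls, at 103 without DN:WT animal 28, 158 without animal 7, 159 without animal 2, 181 without animal 21 and 238 without animal 5. Clec4f averaged 93.9 CPM in DN:HET livers (DN:WT 81.9, DN:HOM 0.369), and Col1a1 averaged 20 CPM (DN:WT 11.2, DN:HOM 127). Gpnmb averaged 7.82 CPM in DN:HET livers (DN:WT 1.01, DN:HOM 185), Ubd 43.7 CPM (DN:WT 2.08, DN:HOM 179) and Slc7a11 0.998 CPM (DN:WT 0.0972, DN:HOM 8.61). Within the DN:HET group, animals 22 and 4 stood above the others in several of these measures. Gpnmb was at 17 and 16.5 CPM in these and at 1.29 to 9.24 CPM in the other 6, and Slc7a11 at 2.99 and 4 CPM against 0 to 0.449 CPM. Mean log2 levels of acute phase proteins relative to DN:WT were 1.35 and 1.42 in these livers and -0.18 to 0.60 in the other 6, and those of G2 and M genes 1.5 and 1.38 against -0.22 to 0.52. Of the 37 function lists, those with the most DN:HET calls were acute phase proteins and cytoskeleton genes, with 4 higher each, and 4 of the 10 markers of recruited macrophages were higher. Of T and NK cell markers 6 of 9 were higher in DN:HET livers (median 1.82, against 1.17 with 4 called in DN:HOM livers). P450 genes had 2 higher, of which 1 was Cyp3a11 (log2 fold change 0.89), and the mitochondrial lists had no call in either direction.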

How the data were processed

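Polyadenylated RNA of 48 livers was sequenced as stranded libraries. Per the labels and the methods of the study, the authors mapped reads with STAR 2.5.0a to GRCm39 and deposited, for every liver, read counts by gene, unstranded and for both strands. The sense-strand counts (column 4) were used, and the study's own test was DESeq2. The files listed 55416 genes and 4 summary lines, which were left out of library sizes and held 25.3% of reads in DN:HOM and 30.6% in DN:WT livers on average (7 livers each). Gene symbols were found for 54749 IDs (98.796%). No 2 livers of a group had identical counts.

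Counts were fitted with edgeR 4.0.16 (R 4.3.3) by the quasi-likelihood test with 6 group means, after its default filter on low counts and scaling by trimmed means (TMM), with Benjamini-Hochberg adjustment over all genes tested and a threshold of 0.05. The first fit used 46 livers, since source data of the study omit DN:WT animal 10 and DN:HOM animal 12, and every result was also taken from the fit of all 48. The other groups, DN:HET and the 3 groups of a receptor knockout line, entered for a shared estimate of spread. CPM were scaled over all 48 livers, and list means used log2 CPM with a prior count of 2. Standard errors are the log2 fold change over the square root of F. Single values by liver were compared with exact permutation tests, for which 7 against 7 livers cannot go below p = 0.000583. Nothing in the labels beyond the animal number says how livers relate, so p-values measure the spread between these animals. Simulated counts had 200 changed genes, as many up as down, and a fixed dispersion of 0.05. On such counts for 15070 genes, the fit of DN:HOM against DN:WT recovered 86% of genes changed by 1 and 91% of those changed by 2 on the log2 scale, and called 11 of 14880 unchanged genes. Far more genes were called in the livers themselves, so the simulation cannot speak to how those calls depend on scaling.

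The lists of genes and the functions described were chosen with earlier results of these data known. Named genes were Nr1h3, per list at most the 4 largest rises and the 4 largest falls that passed with a mean of at least 5 CPM in either group, and up to 3 members that did not pass, the 10 largest gains and losses in CPM, and the 10 largest rises and falls on no list with at least 20 CPM. Some genes that this rule names are not reported here. Alternatives were DESeq2 1.42.0, other scalings, filters, thresholds and sets of livers, unstranded counts and leaving out each liver. The fit of the 16 compared livers alone was added after seeing the data. Gene positions are from GRCm39 and promoters from RefSeq on GRCm38.p6.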

Additional observations from a re-analysis of the deposited data

Results flagged for a closer look

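In groups of 7 livers, 516 values (log2 CPM of named genes and list means) were searched for a liver far from the others, by the gap between the farthest liver and its neighbour as a share of the group's range, against the 95% limit of Dixon's test. Past it were 25 values, 22 of genes and 3 of list means, and chance alone passes about 1 in 20. DN:HOM animal 33 was the far liver for Alb (0.814, with 24820 CPM against a group median of 20660), C1qb (0.581), C1qc (0.723, 55.6 against 95.6 CPM), Timp1 (0.569, 6.41 against 12.9 CPM), Cd5l (0.617), Timd4 (0.729), Pdgfrb (0.577), Cd63 (0.625, 103.5 against 158 CPM) and H2-M2 (0.674, 10.8 against 26.8 CPM). It thus had the highest Alb, Cd5l and Timd4 of its group and the lowest C1qc, Timp1 and Cd63, while its Cd5l of 0.592 CPM was still far below every DN:WT liver.

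DN:WT animal 17 was the far liver for Cyp2c50 (0.613, 550.2 against 675 CPM), Serpina1c (0.656), Cox7b (0.574, 201 against 156 CPM) and Inmt (0.592, 1376 against 878 CPM), and for the list means of ATP synthase subunits (0.683) and of the mitochondrial ribosome, import and biogenesis (0.582). DN:WT animal 5 was it for Cyp2c55 (0.688, 2.33 against 5.54 CPM), Aldh3a2 (0.596), Abcc4 (0.821, 0.283 against 1.43 CPM), Col6a3 (0.656, 12.8 against 8.08 CPM) and Plk1 (0.662, 0.0707 against 0.487 CPM). The others were DN:HOM animal 31 for Cyp2c55 (0.586), DN:HOM animal 18 for Cox7b (0.613) and S100a8 (0.65, 29.7 against 12.4 CPM), DN:WT animal 21 for Gadd45b (0.656) and DN:WT animal 7 for the T and NK cell list (0.581).

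With the livers labelled DN:WT animal 10 and DN:HOM animal 12 put back into groups of 8, animal 10 was past it for 19 and animal 12 for 17 of the 37 function list means.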

How the results depend on the processing

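Against 9292 calls (4579 higher, 4713 lower), a log2 fold change of at least 1 left 3610 (2459 higher, 1151 lower), and library size alone gave 9283 higher and 1738 lower. The 16 livers alone, added after seeing the data, gave 6316 (3244 higher, 3072 lower). Leaving out single livers gave 8973 to 9434 calls, 4380 to 4541 higher and 4522 to 4893 lower. The number of function lists with a median above 0 was 12, 19 under library size alone and 11 to 12 without single livers. List means without overlap fell from 29 to 0 with all 16 livers. The 361 DN:HET calls became 578 with DESeq2, 30 at an adjusted p of 0.01, 39 with all 48 livers, 61 with all but animal 12, 202 with all but animal 10, 239 in the knock-in groups alone and 103 to 362 without single livers. Under library size alone Nr1h3 (0.11) and Hnf4a (0.28) changed sign. Of 211 named genes, all 48 livers kept the side of the threshold for 205, library size alone for 201 and the 16 livers alone for 186, among whose 25 losses were Scd1, Cfd, Gpnmb, Spp1, Ccnb2 and Plk1. DESeq2, both filters and upper-quartile scaling kept it for all 211, and unstranded counts for the 210 tested. The cause was not tested. No paired analysis was possible because no label ties a DN:HOM liver to a DN:WT liver. Depth limits the rarest transcripts, such as Timd4, which was at 0 reads in some DN:HOM livers.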
